A study of Homo sapiens with 6 samples.

Results

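The short arm of human chromosome 6 carries, around and beyond the HLA genes, a dense stretch of genes that have no part in antigen presentation. The set described here is 59 named genes of band 6p21, from PRRC2A in the class III region to CDC5L, with the antigen presentation genes left out. They were chosen by name with measured values of these arrays known. The choice rests on the difference between laminin α1 and control cells, for which no cut-off was given. A difference between replicate numbers was also named with the choice. A probe set that the platform annotation gives to exactly 1 gene was found for 52 of the 59, out of 18417 such genes in all, and all 52 were above the level filter that left 13812 genes for testing. The other 7, MSH5, ATF6B, PPT2, AGPAT1, RNF5, PBX2 and NUDT3, have only probe sets listed with several genes. STK19 was found under WHR1, its current symbol in RefSeq.

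The arrays measured total RNA of HT29, an established human colorectal adenocarcinoma line, after 7 days of growth. The laminin α1 group, 3 arrays, carried an expression construct for the laminin α1 chain, part of a laminin of the basement membrane, and the control group, 3 arrays, carried a control construct. The arrays of a group are separate culture passages, so errors measure the spread between passages. How many clones each group comes from, and which promoter drives the construct, is not given in the sources used here. Values are log2 expression after RMA, which sets all arrays to nearly the same distribution, so a value is a level relative to the other genes of the same array. The median of an array lay between 6.45 and 6.49. LAMA1, the gene of the chain, read 5.79, 5.72 and 5.71 in the laminin α1 arrays, against 5.71, 5.63 and 5.60 in the control arrays. The difference, 0.09 (95% interval -0.05 to 0.24), missed the limma threshold (adjusted p = 0.535), at a level near the 27.8th percentile of all genes, so LAMA1 does not verify the labels. All 10 HT29 epithelial markers on the array were above the filter in their mean over all arrays, led by KRT8, KRT18 and EPCAM. Of these, 2 passed the threshold as lower in laminin α1 cells, CDH17 by a log2 difference of -1.65 and KRT20 by -0.35. CDH17 was above the filter only through the control arrays, with a mean of 6.58 there and 4.93 in laminin α1 cells. Of the markers of other cells, 3 of 8 for fibroblasts and 5 of 7 for blood and endothelium were below the filter. The lists overlap in level, since COL1A1 (7.37) and CD14 (7.03) lay near the epithelial markers CDX2 (7.19) and CDX1 (7.10). The mean level of the fibroblast list ranged from 5.42 to 5.50 over the laminin α1 arrays and from 5.37 to 5.47 over the control arrays. For the blood and endothelial list the ranges were 5.40 to 5.44 in laminin α1 arrays and 5.39 to 5.40 in control arrays. In bulk RNA, more cells of a kind and more RNA per cell cannot be told apart.

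Most of the genes are broadly expressed and serve basic cell functions. The class III region of the major histocompatibility complex holds genes for chaperones, splicing factors and lysosomal enzymes between those of complement and cytokines. Further along lie Polycomb and other chromatin genes, and towards the centromere, in 6p21.1, genes of ribosome assembly, ubiquitin ligases, transcription and transport. The genes stand close together, and several pairs start head to head from a shared region.

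The promoter sequences of 6 genes, from 250 bases before to 50 bases after the start in RefSeq (GRCh38.p14), are shown. NEU1, SLC29A1 and WDR46 have some of the clearest group differences and an E-box each, PFDN6 starts opposite WDR46 so that their windows overlap, PHF1 has the largest group difference, and CDC5L stands out in the comparison of passages. Capitals mark matches, on either strand, to 6 motifs that were searched: the E-box CACGTG, the GC box GGGCGG, the CCAAT box CCAAT, the ETS motif CCGGAAG, the interferon regulatory motif GAAANNGAA and the NRF1 motif GCGCATGC. No match overlaps another in these sequences.
NEU1 (chr6:31862772-31863071, minus strand): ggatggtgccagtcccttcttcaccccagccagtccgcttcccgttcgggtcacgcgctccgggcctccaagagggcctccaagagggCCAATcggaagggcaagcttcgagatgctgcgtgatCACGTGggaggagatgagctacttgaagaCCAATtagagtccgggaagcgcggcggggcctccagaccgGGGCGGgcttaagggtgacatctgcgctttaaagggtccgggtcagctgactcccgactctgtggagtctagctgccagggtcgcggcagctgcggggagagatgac
SLC29A1 (chr6:44219365-44219664, plus strand): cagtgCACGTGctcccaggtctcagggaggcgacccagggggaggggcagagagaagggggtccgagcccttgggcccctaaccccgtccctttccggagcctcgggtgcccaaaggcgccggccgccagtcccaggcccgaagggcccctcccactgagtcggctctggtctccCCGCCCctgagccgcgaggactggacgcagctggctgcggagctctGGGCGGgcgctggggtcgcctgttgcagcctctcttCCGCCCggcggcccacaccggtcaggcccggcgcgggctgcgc
WDR46 (chr6:33289190-33289489, minus strand): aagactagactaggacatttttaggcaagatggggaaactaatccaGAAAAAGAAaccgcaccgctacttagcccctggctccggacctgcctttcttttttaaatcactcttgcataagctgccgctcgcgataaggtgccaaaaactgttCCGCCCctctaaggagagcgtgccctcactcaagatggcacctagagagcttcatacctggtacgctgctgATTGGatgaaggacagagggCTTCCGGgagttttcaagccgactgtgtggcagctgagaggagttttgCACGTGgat
PFDN6 (chr6:33289347-33289646, plus strand): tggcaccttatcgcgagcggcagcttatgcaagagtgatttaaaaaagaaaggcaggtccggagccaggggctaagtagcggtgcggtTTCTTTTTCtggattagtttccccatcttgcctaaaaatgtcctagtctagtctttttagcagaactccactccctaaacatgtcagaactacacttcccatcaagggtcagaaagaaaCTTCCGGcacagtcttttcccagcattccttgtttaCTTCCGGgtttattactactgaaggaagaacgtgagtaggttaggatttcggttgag
PHF1 (chr6:33410764-33411063, plus strand): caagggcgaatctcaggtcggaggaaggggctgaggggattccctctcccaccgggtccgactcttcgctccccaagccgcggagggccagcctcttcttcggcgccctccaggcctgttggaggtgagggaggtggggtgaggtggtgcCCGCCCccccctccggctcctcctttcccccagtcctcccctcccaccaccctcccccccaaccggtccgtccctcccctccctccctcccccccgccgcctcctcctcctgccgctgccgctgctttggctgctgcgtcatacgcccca
CDC5L (chr6:44387456-44387755, plus strand): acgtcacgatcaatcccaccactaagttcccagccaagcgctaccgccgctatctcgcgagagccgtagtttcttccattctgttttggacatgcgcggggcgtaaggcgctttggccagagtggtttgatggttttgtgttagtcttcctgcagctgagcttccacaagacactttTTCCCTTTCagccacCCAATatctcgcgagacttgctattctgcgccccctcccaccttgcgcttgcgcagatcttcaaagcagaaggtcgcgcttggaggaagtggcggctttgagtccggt

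A promoter was listed for 46 of the 52 genes, and GC content over them ranged from 42.3% to 77.0%. The E-box was present in 15.2% of the 46, those of NEU1, EHMT2, WDR46, CUTA, BYSL, KLHDC3 and SLC29A1, against 7.43% of all 27305 promoters in the table and 9.90% of the 10855 promoters of genes tested. The GC box was present in 78.3% of the 46, against 44.6% of all and 68.0% of those of genes tested. The ETS motif was present in 30.4%, against 10.7% and 17.4%. The CCAAT box stood in 30.4%, against 35.7% of all promoters and 35.7% of those of genes tested. The NRF1 motif stood in 2.17%, against 3.27% and 4.80%, and the interferon regulatory motif in 13.0%, against 8.29% and 5.96%. Where windows overlap, a site counts for both genes. The interferon regulatory matches of WDR46 and PFDN6 are the same site read on opposite strands. MEA1 and KLHDC3 likewise share a GC box, as do XPO5 and POLH. A match is a run of letters and says nothing of binding.

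All 52 genes had a mean above that of control cells in laminin α1 cells. This sign is what the genes were chosen for and is given as a description. The differences ran from 0.03 for ZBTB22 to 0.42 for PHF1 on the log2 scale, that is from 1.02-fold to 1.34-fold, with a median of 0.17. Over all 13812 genes the median was -0.01, and 45.6% were above 0. The limma threshold (adjusted p under 0.05 over all genes tested) was passed by 6 of the 52, all higher, while 2.69% of all genes passed it as higher and 2.59% as lower. In 24 of the 52 every laminin α1 array was above every control array, which held for 10.1% of all genes. The rule used this contrast, so nothing is read from either count. The 6 are DAXX, SLC29A1, NEU1, MEA1, CLIC1 and WDR46. WDR46 no longer passed without the level filter or with a trended and robust variance model, and CLIC1 no longer passed with the mean of its probe sets. The number rests on single arrays: it was 1 without laminin α1 array 1, 0 without laminin α1 array 2 and 13 without laminin α1 array 3, and it was 2, 0 and 1 without control arrays 1, 2 and 3 in turn. The median stayed between 0.13 and 0.22 over the same omissions.

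The arrays of a group were not alike. Relative to each gene's control mean, the median of the 52 genes was 0.27, 0.19 and 0.09 in laminin α1 arrays 1, 2 and 3, against 0.06, -0.01 and -0.05 in control arrays 1, 2 and 3. Laminin α1 array 1 was the highest of the 6 arrays for 38 of the 52 genes, and control array 3 was the lowest for 35. Laminin α1 array 3 was below control array 1 for 23 of the 52 genes (44.2%), so the groups overlap for many of them. The same order of these 2 arrays was seen for 60.1% of all genes tested.

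**Figure D1:**
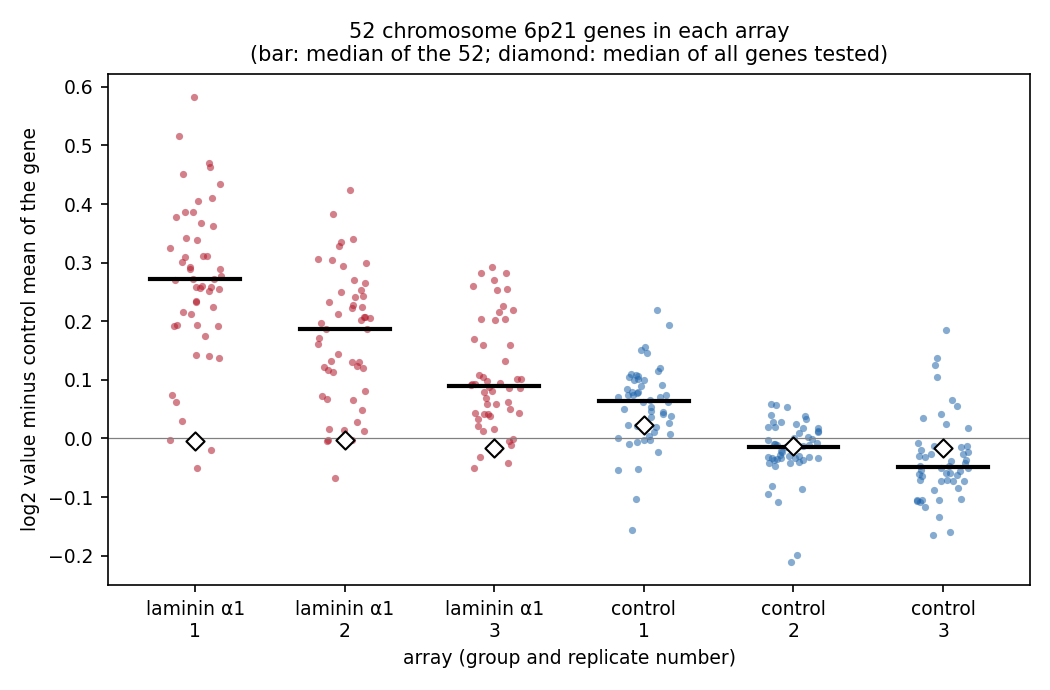
Each point is 1 of the 52 chromosome 6p21 genes in 1 array, as the log2 value minus the gene's mean over the control arrays; bars are medians of the 52 genes and diamonds are medians of all genes tested. The bars lie at 0.27, 0.19 and 0.09 in the laminin α1 arrays and at 0.06, -0.01 and -0.05 in the control arrays, while the diamonds stay near 0.

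Of 15 chromatin and transcription genes, 13 were measured, with a median difference of 0.18. The groups did not overlap for 8 of the 13, against 10.1% of all genes tested, a count that the choice of the genes favours. PHF1, a Polycomb-like protein of the repressive complex PRC2, read 7.41, 7.25 and 7.09 in the laminin α1 arrays, against 7.02, 6.79 and 6.67 in the control arrays. Its difference, 0.42 (95% interval 0.18 to 0.66), was the largest of the 52, but its arrays spread by nearly as much within each group and it did not pass the threshold. DAXX, a histone chaperone, read 7.89, 7.72 and 7.71 in the laminin α1 arrays, against 7.42, 7.37 and 7.46 in the control arrays. Here the groups were well apart, with a difference of 0.35 (95% interval 0.20 to 0.51). RING1, a ubiquitin ligase of the Polycomb complex PRC1, read 7.94, 7.79 and 7.78 in the laminin α1 arrays, against 7.67, 7.57 and 7.42 in the control arrays, a difference of 0.28 (95% interval 0.10 to 0.46) without overlap. EHMT2, a histone methyltransferase of silent chromatin, read 8.70, 8.53 and 8.44 in the laminin α1 arrays, against 8.47, 8.36 and 8.29 in the control arrays. Its groups overlap, since laminin α1 array 3 lay below control array 1, and its difference was 0.18 (95% interval -0.0047 to 0.37). ZBTB22, a zinc finger protein, read 7.76, 7.74 and 7.79 in the laminin α1 arrays, against 7.83, 7.69 and 7.66 in the control arrays, and its highest value was in a control array. The Mediator subunit MED20 differed by 0.20, the NF-kB inhibitor NFKBIE by 0.18, TFEB, a regulator of lysosome genes, by 0.18, and the bromodomain protein BRD2 by 0.17. The retinoid receptor RXRB, SRF, HMGA1 and TAF8 lay between 0.09 and 0.14.

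For 7 genes of the cell cycle, genome maintenance and cell death, 6 measured, the median difference was 0.23. BAK1, an effector of mitochondrial apoptosis, read 8.24, 8.08 and 7.92 in the laminin α1 arrays, against 8.03, 7.60 and 7.80 in the control arrays. The control arrays of BAK1 spread widely, control array 1 lay above laminin α1 array 3, and the difference was 0.27 (95% interval 0.01 to 0.53). The mitotic motor KIFC1 differed by 0.27, cyclin D3 (CCND3) by 0.24, STK19 by 0.23 and the translesion polymerase POLH by 0.15. CDC5L, a splicing factor also needed for cell division, read 9.40, 9.42 and 9.68 in the laminin α1 arrays, against 9.27, 9.39 and 9.61 in the control arrays. In both groups its array numbered 3 was the highest, unlike most of the 52, and the group difference was 0.08 (95% interval -0.15 to 0.31).

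For RNA and ribosome genes, 7 of 8 measured, the median difference was 0.17. WDR46, a nucleolar protein, read 8.06, 8.05 and 8.01 in the laminin α1 arrays, against 7.84, 7.78 and 7.76 in the control arrays, with the narrow spread of 0.03 (SD) in laminin α1 cells and 0.04 in control cells (n = 3 each). Its difference was 0.25 (95% interval 0.11 to 0.38). BYSL, which acts in maturation of the small ribosomal subunit, read 8.400, 8.133 and 8.038 in the laminin α1 arrays, against 8.003, 7.921 and 7.885 in the control arrays. The groups of BYSL did not overlap, with laminin α1 array 1 well above the rest, and the difference was 0.25 (95% interval 0.05 to 0.46). LSM2, of the ring that binds U6 RNA, differed by 0.22, the U1 protein SNRPC by 0.17, the microRNA precursor exporter XPO5 by 0.15, PRRC2A by 0.11 and the mitochondrial ribosomal protein MRPS10 by 0.10.

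Protein folding and turnover had 12 genes, 10 measured, with a median difference of 0.17. NEU1, the lysosomal sialidase, read 9.26, 9.24 and 9.14 in the laminin α1 arrays, against 9.01, 8.76 and 8.79 in the control arrays. All laminin α1 arrays of NEU1 were above all control arrays, and the difference was 0.36 (95% interval 0.18 to 0.54). UBR2, a ubiquitin ligase of the N-degron pathway, read 8.70, 8.68 and 9.02 in the laminin α1 arrays, against 8.73, 8.72 and 8.81 in the control arrays. One high laminin α1 value carries its difference of 0.05 (95% interval -0.16 to 0.26), which was -0.06 without laminin α1 array 3. HSP90AB1, the constitutive cytosolic HSP90, was among the brightest of the set at 12.22, 12.22 and 12.17 in the laminin α1 arrays, against 12.20, 12.13 and 12.14 in the control arrays, a difference of 0.05 (95% interval -0.09 to 0.18). The tubulin cofactor TBCC differed by 0.25, the cullins CUL7 and CUL9 by 0.24 and 0.15, the cullin adaptor KLHDC3 by 0.21, the chaperone BAG6 by 0.18, the prefoldin subunit PFDN6 by 0.17 and FKBPL by 0.11. The difference of FKBPL was -0.01 without laminin α1 array 1.

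Membrane, lipid and signalling genes made up the largest group, 16 of 17 measured, with a median difference of 0.16. For 5 of the 16 the groups did not overlap, against 10.1% of all genes tested, and the choice of the genes favours this count too. SLC29A1, the equilibrative nucleoside transporter ENT1, read 9.43, 9.35 and 9.24 in the laminin α1 arrays, against 9.04, 9.06 and 8.96 in the control arrays, a difference of 0.32 (95% interval 0.16 to 0.48). CLIC1, of the chloride intracellular channel family, read 11.68, 11.58 and 11.52 in the laminin α1 arrays, against 11.35, 11.30 and 11.29 in the control arrays, a difference of 0.28 (95% interval 0.13 to 0.43). MEA1 read 11.01, 11.03 and 10.90 in the laminin α1 arrays, against 10.69, 10.73 and 10.67 in the control arrays, a difference of 0.28 (95% interval 0.14 to 0.42). For these 3 genes the groups stood apart, and each array numbered 3 was the lowest of its group. RGL2, an exchange factor for Ral GTPases, read 7.55, 7.22 and 7.31 in the laminin α1 arrays, against 7.11, 7.06 and 6.93 in the control arrays, and its difference of 0.33 (95% interval 0.12 to 0.53) was the largest of the set after those of PHF1, NEU1 and DAXX.

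At the other end, DDAH2, of the dimethylarginine hydrolase family, read 8.19, 7.99 and 7.95 in the laminin α1 arrays, against 8.01, 7.98 and 7.95 in the control arrays. FRS3, an adaptor of fibroblast growth factor receptors, read 7.12, 6.94 and 6.89 in the laminin α1 arrays, against 7.04, 6.92 and 6.82 in the control arrays. PEX6, an ATPase of peroxisome import, read 7.13, 7.05 and 7.10 in the laminin α1 arrays, against 7.21, 7.02 and 6.94 in the control arrays. All 3 overlapped between the groups, and their differences, 0.06, 0.06 and 0.04, turned to -0.01 and -0.01 for DDAH2 and FRS3 without laminin α1 array 1 and to -0.02 for PEX6 without control array 3. The apolipoprotein APOM differed by 0.21, the phosphatidylserine lipase ABHD16A by 0.21, the calcium channel ITPR3 by 0.19, the trafficking subunit VPS52 by 0.16 and CUTA by 0.16. ANKS1A, PTK7, LEMD2 and CSNK2B, the regulatory subunit of casein kinase 2 and the brightest of the set, lay between 0.08 and 0.14.

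**Figure D2:**
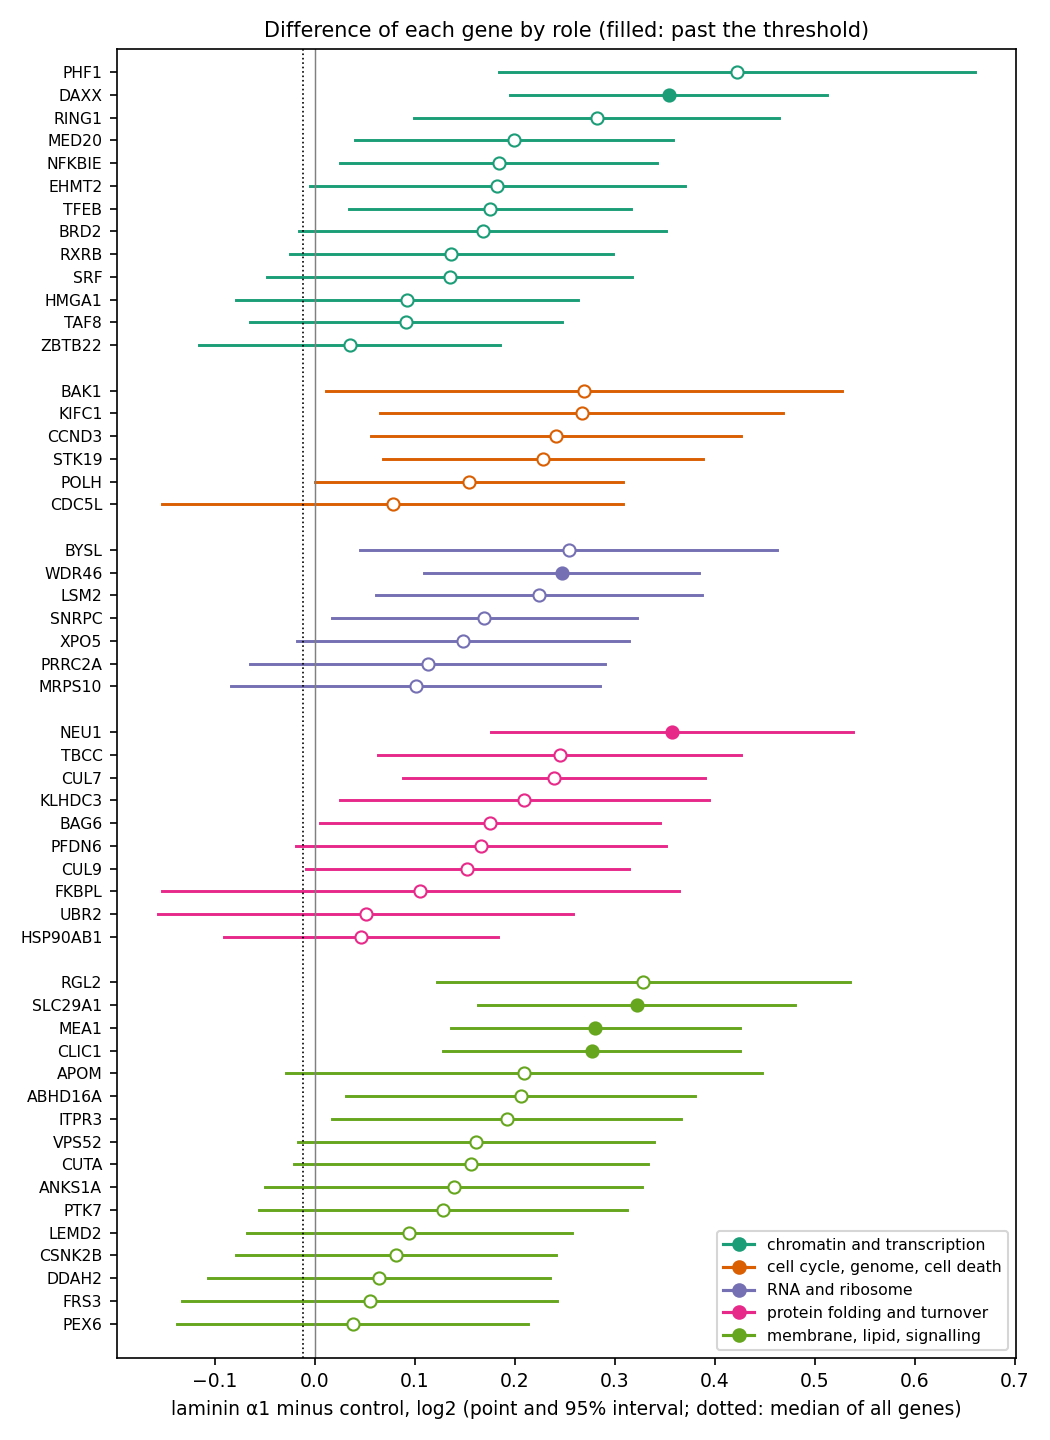
Points are laminin α1 minus control differences of the 52 genes on the log2 scale with 95% intervals of the limma fit (3 arrays per group), ordered by role and size; filled points passed the threshold and the dotted line is the median of all genes tested. All 52 points lie above 0, from 0.03 for ZBTB22 to 0.42 for PHF1, and the 6 filled points are DAXX, WDR46, NEU1, SLC29A1, MEA1 and CLIC1.

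**Figure D3:**
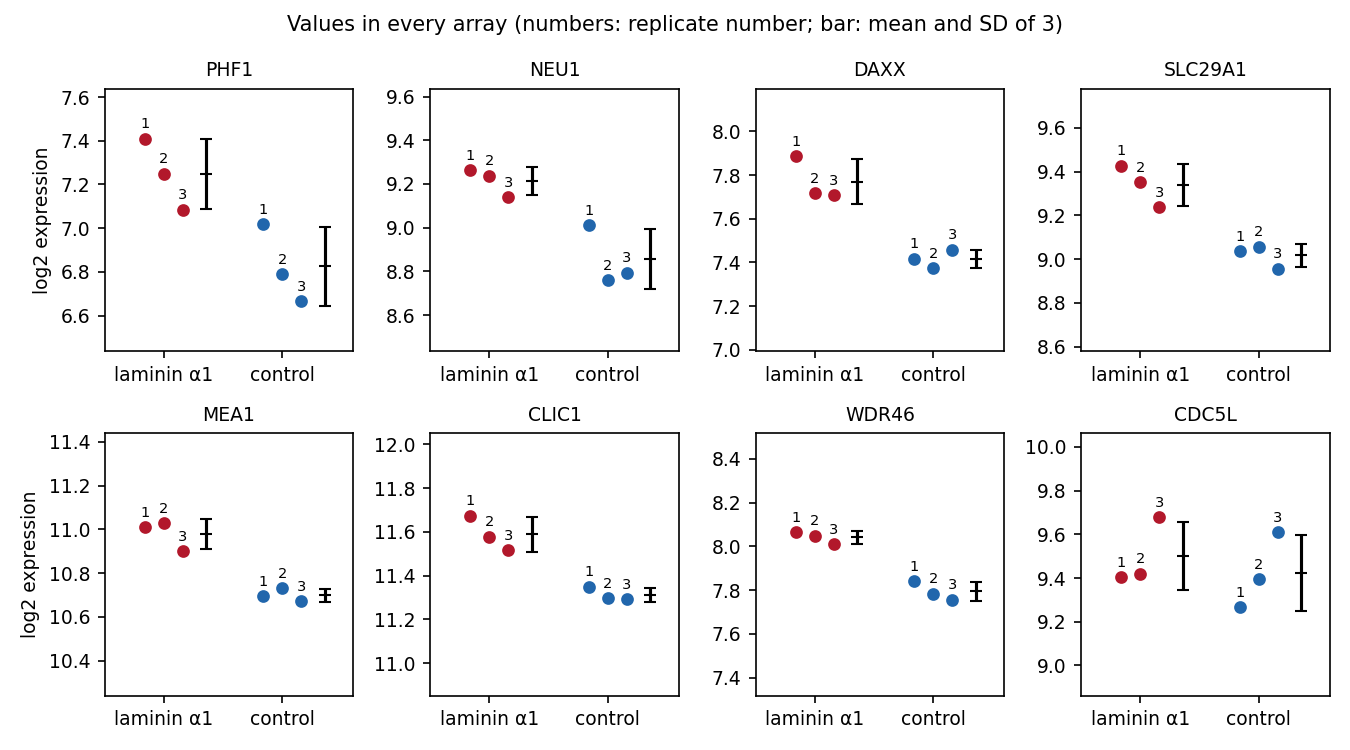
Log2 expression of 8 genes in each array, with laminin α1 arrays left of control arrays, the replicate number above each point, and mean and SD of 3 arrays beside them; every panel spans the same log2 range. The laminin α1 arrays of PHF1, NEU1, DAXX, SLC29A1, MEA1, CLIC1 and WDR46 lie above their control arrays, while those of CDC5L overlap.

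By position, the 12 measured class III genes, PRRC2A to FKBPL, had a median difference of 0.19, the 13 from BRD2 to BAK1 one of 0.25, the 5 from ITPR3 to ANKS1A one of 0.14 and the 22 of 6p21.1, TFEB to CDC5L, one of 0.15. The same fit covers 131 other tested genes between PRRC2A and CDC5L that were not in the set. Their median was 0.07, with 95 above 0 (72.5%), 4 past the threshold as higher and none lower. The 4 are 3.05% of these genes, near the 2.69% of all genes that passed as higher. Over the 99 of them at or above the level of FKBPL, the dimmest of the set, the median was 0.11 and 79.8% were above 0, while over the 32 dimmer ones it was -0.0045 and 16 were above 0. So the genes left out were also more often above than below 0 where they were bright enough to compare. TRERF1, a zinc finger transcription regulator, read 8.02, 7.97 and 8.08 in the laminin α1 arrays, against 7.54, 7.66 and 7.58 in the control arrays, a difference of 0.43 (limma adjusted p = 0.00376), and passed with any 1 array left out. TMEM63B, a mechanosensitive channel, differed by 0.46 (adjusted p = 0.0139), a call lost without laminin α1 array 2 or control array 2. The potassium channel KCNK5 differed by 0.44 (adjusted p = 0.0273) and TREML2 by 0.30 (adjusted p = 0.0288), and both passed in few of the fits that left out 1 array, KCNK5 in 2 of 6 and TREML2 in 1 of 6. The lost calls were those without laminin α1 arrays 1 or 2 or control arrays 2 or 3, and for TREML2 also control array 1.

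Outside the stretch, the other 221 genes of the short arm had a median of 0.07 with 74.7% above 0, and the 257 genes of the long arm one of -0.05 with 34.2% above 0. Chromosome 6 as a whole had a median of 0.04, rank 2 of 23 chromosomes after chromosome 13 with 0.16. A positive median was thus not limited to the chosen genes, whose higher value is what they were chosen for.

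**Figure D4:**
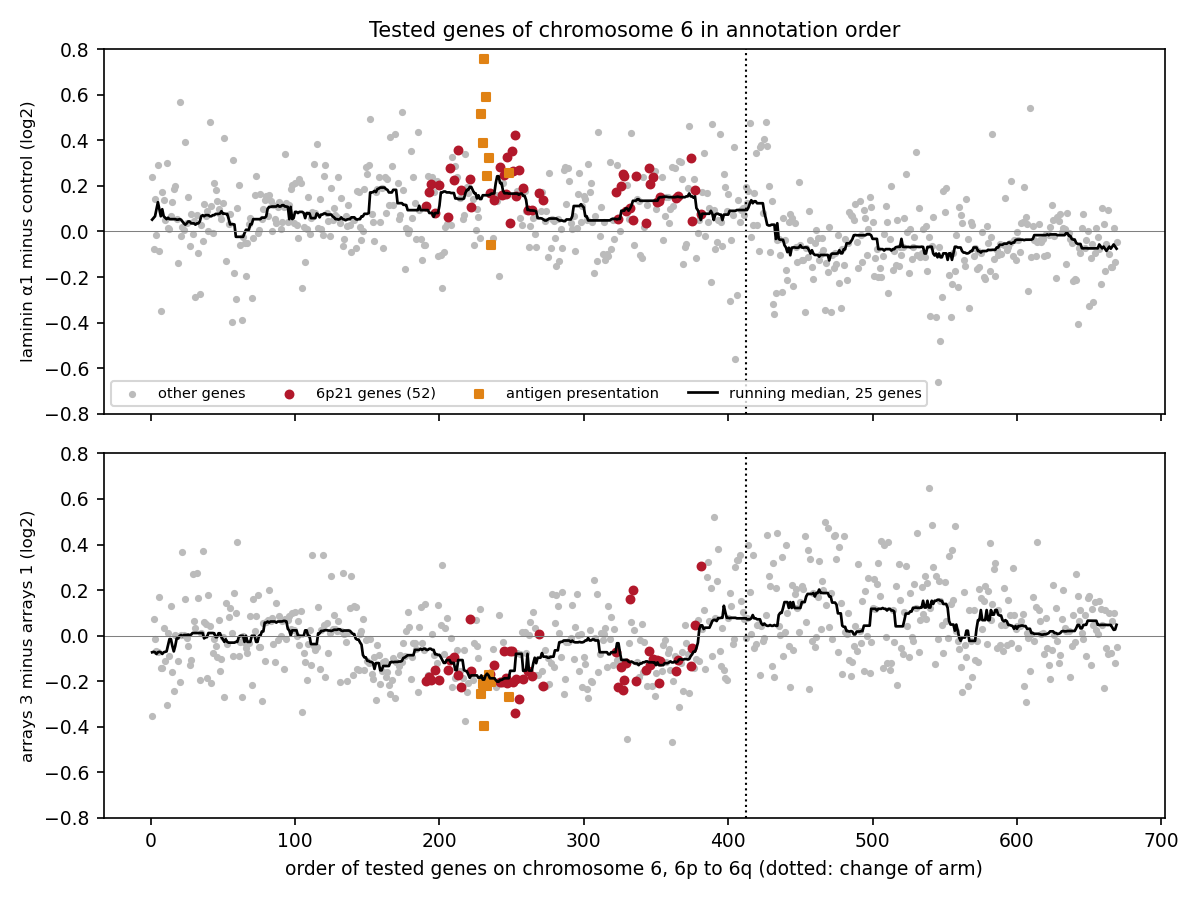
The 669 tested genes of chromosome 6 in annotation order, with laminin α1 minus control (upper panel) and arrays numbered 3 minus arrays numbered 1 (lower panel) on the log2 scale, a running median of 25 genes, and 5 points outside the axis limits of 0.8. The running median of the upper panel stays above 0 over most of the short arm and falls below it on the long arm. In the lower panel it dips below 0 at the start of the short arm, before PRRC2A and over 6p21.

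Antigen presentation genes of the same stretch lie among these genes. Of 21 listed, 13 had a single-gene probe set and 8 were tested, with a median difference of 0.35, 7 above 0, and 3 past the threshold. Over all genes tested, 45.6% were above 0 and 2.69% passed as higher. The list comes from the same stretch and the same contrast, so nothing is read from these counts. TAP1, a subunit of the peptide transporter, read 8.75, 8.41 and 8.19 in the laminin α1 arrays, against 7.78, 7.75 and 7.55 in the control arrays, and rose by 0.76 (limma adjusted p = 0.00682). The immunoproteasome subunit PSMB9 read 7.67, 7.37 and 7.37 in the laminin α1 arrays, against 6.99, 6.76 and 6.89 in the control arrays, and rose by 0.59 (adjusted p = 0.00514). For both genes the groups did not overlap. TAP2, the other transporter subunit, rose by 0.52 (adjusted p = 0.0190). HLA-DMA, which loads peptides on class II molecules, differed by 0.32 (adjusted p = 0.0505). The calls of TAP1 and PSMB9 held with any 1 array left out, and that of TAP2 was lost when control array 1, 2 or 3 was left out.

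The replicate numbers mark passages of a group, and the labels do not say that a number was shared between the groups. Still, the arrays numbered 3 were set against those numbered 1 in a fit with group and number as terms. This contrast was named with the choice of the genes, so its shares are a description and nothing is read from them. The fit pools same-numbered arrays of both groups, so its p-values assume that a number means the same in each group. For 46 of the 52 genes the arrays numbered 3 were lower (88.5%), with a median of -0.15, against 58.4% and -0.03 over all genes. The direction held within both groups for 42 of the 52 genes (80.8%), against 40.6% of all genes. Within the laminin α1 group the median was -0.19, and within the control group it was -0.11. PHF1 was lower by a log2 difference of -0.34 (limma adjusted p = 0.0249), and CDC5L was higher by 0.31 (adjusted p = 0.0332). These 2 were the only members past the threshold, while 1.59% of all genes passed it as lower and 6.41% as higher. Each call was lost without laminin α1 array 1, laminin α1 array 3, control array 1 or control array 3.

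The next largest of these differences were those of BAK1 (-0.28), BYSL (-0.24), EHMT2 (-0.23) and FRS3 (-0.23), none of which passed. The 6 genes on the higher side were CDC5L, UBR2 (0.20), MRPS10 (0.16), STK19 (0.07), NFKBIE (0.05) and SNRPC (0.01). For STK19 the sign depends on the probe set, since its 2 dimmer probe sets, which hold identical values, gave -0.11. All 16 membrane, lipid and signalling genes measured were on the lower side, and in both groups. The 8 antigen presentation genes were also all lower in the arrays numbered 3, with a median of -0.22, and the 131 other genes of the stretch had a median of -0.08. The rest of the short arm had -0.01 and the long arm 0.06. No date or batch is given in the sources used here, so what separates the passages was not tested.

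Whether the passages differ by more than the groups was asked gene by gene, with a test that calls 1 of the 2 differences larger in absolute size. Passage difference here means the arrays numbered 3 minus those numbered 1, pooled over both groups. The passage difference was the larger one for 23 of the 52 genes (44.2%) and the group difference for 29, while the passage difference was larger for 60.0% of all genes. The choice of the genes favours the group side, and the passage contrast was named with it, so nothing is read from these shares. No member passed this limma-based test in either direction, with 3 at an unadjusted p under 0.05, CDC5L for the passage side and DAXX and MEA1 for the group side. Of all genes, 0.123% were called for the passage side and 1.19% for the group side. The median absolute difference of the 52 genes was 0.17 between groups and 0.16 between passages, against 0.08 and 0.11 over all genes. The passage difference sets 2 arrays against 2, and the group difference 3 against 3. Noise alone therefore makes the passage side larger more often, so these medians and the 60.0% do not compare effect sizes on equal terms. For FRS3 the group difference was 0.06 and the passage difference -0.23, while for DAXX they were 0.35 and -0.07. PHF1 was high on both, with 0.42 between groups and -0.34 between passages.

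**Figure D5:**
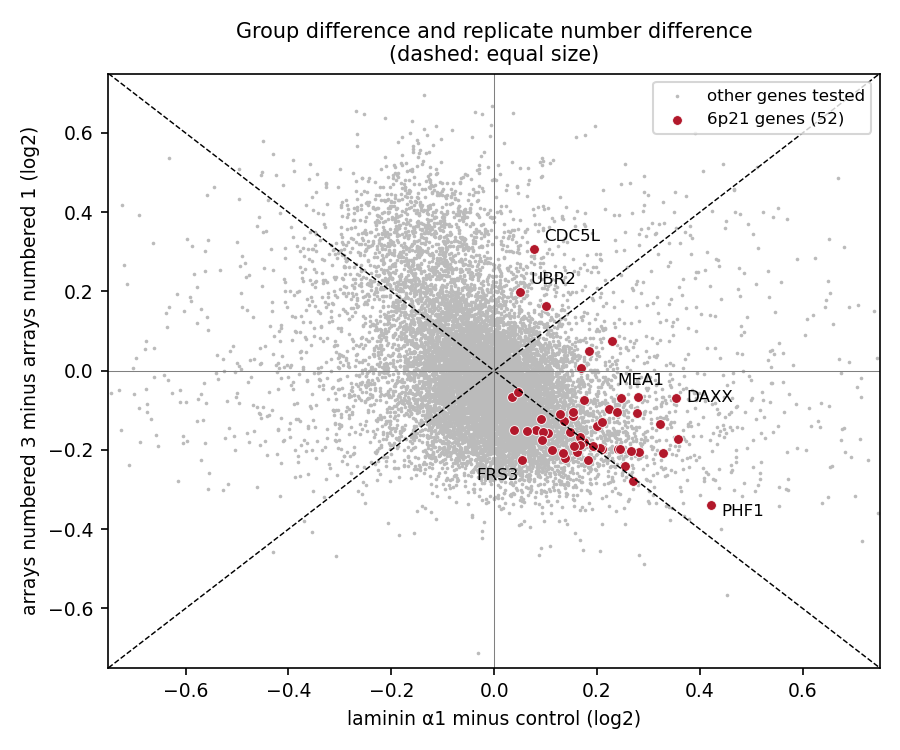
Each point is a tested gene, with laminin α1 minus control on the horizontal axis and arrays numbered 3 minus arrays numbered 1 on the vertical axis, both log2; red points are the 52 genes, dashed lines mark equal size, and 147 genes lie outside the axis limits of 0.75. All 52 red points lie right of 0 and 46 lie below 0, with CDC5L the highest at 0.31 and PHF1 the lowest at -0.34.

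The set holds 4 head-to-head pairs, whose partners start from a shared region. MEA1 and KLHDC3 start 266 bases apart on opposite strands and differed between groups by 0.28 and 0.21. WDR46 and PFDN6 start 358 bases apart and differed by 0.25 and 0.17, MED20 and BYSL, 556 bases apart, by 0.20 and 0.25, and XPO5 and POLH, 147 bases apart, by 0.15 and 0.15. In each pair both partners were also lower in the arrays numbered 3.

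Partners and paralogs of the set encoded elsewhere are given as a description. The set was chosen for its positive differences, so a lower median in another list says nothing about location or function. Of 91 listed genes, among them the Polycomb subunit EZH2, the prefoldins PFDN4 and PFDN5 and the nucleoside transporter SLC29A2, 74 were tested. Their median was -0.02 with 32 above 0, none passed the threshold as higher, and 1 was lower. That gene was SLC29A3, a lysosomal nucleoside transporter, with -0.28 (limma adjusted p = 0.0414), a call that remained in 1 of 6 fits with 1 array left out, the one without laminin α1 array 1. Next by limma p were CLIC4 (-0.27), CSNK2A2 (-0.15) and PBX3 (-0.19), all on the lower side and none past the threshold. The genes that follow were picked for their tie to members after their values were seen. SLC29A1 on 6p21 differed by 0.32, and SLC29A2 by 0.09 (adjusted p = 0.575). EZH2, which works with PHF1, differed by -0.17 (adjusted p = 0.291), and BAX, the relative of BAK1, by -0.09 (adjusted p = 0.560). Other relatives were higher by as much as many members, though none passed the threshold. TFE3 differed by 0.18, PFDN4 by 0.18, NFKBIA by 0.17 and PHF19 by 0.17, while 42 of the 74 were below 0.

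For 23 of the 52 genes the array holds further single-gene probe sets, 37 in all. Every one of the 37 was above 0 for laminin α1 minus control and below 0 for the arrays numbered 3 minus those numbered 1. In 12 the values were identical to those of the probe set used, so these add no information. The other 25 differed between groups by 0.03 to 0.41, and the widest gap to the probe set used was 0.10, for STK19. Among these 25, the further probe sets of NEU1, of STK19 and of VPS52 are copies of each other with identical values. Probe sets of a gene read the same RNA and are not replicates.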

How the data were processed

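Expression was measured on 6 arrays of HT29 cells, 3 per group. Each probe set has a deposited log2 expression value, which the authors made with RMA in Affymetrix Expression Console 1.1, per the submitters' processing notes, and which was used unchanged. The table held 33297 probe sets with values from 2.40 to 13.9. The platform annotation gave 1 gene symbol for 19460, several for 1754 and none for 12083. The brightest single-symbol probe set was taken for each of 18417 genes, and genes with a mean level above the 25th percentile (5.50) were tested, 13812 in all. With 3 arrays per group the precision is limited: over all genes, the standard error of a difference had a median of 0.0754.

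Differences and 95% intervals were fitted with limma 3.58.1 (lmFit, eBayes; R 4.3.3), with group as the only term for laminin α1 minus control, and with group and replicate number for arrays numbered 3 minus 1. The Benjamini-Hochberg adjustment ran over all genes tested, and an adjusted p under 0.05 was the threshold. The test of which difference was larger took, in the same fit, the larger p of the tests that their sum and their difference exceed 0 in the fitted sign. Genes, lists, roles and tests were chosen with earlier results of these data known. Values in every array are given for members past the threshold, the 6 largest and 6 smallest group differences and the 6 largest passage differences. Of other lists, up to 4 genes by p are named, some with their difference alone. Marker genes were also named by level, and partners and paralogs also by their tie to members. Gene order, synonyms, promoters and starts came from RefSeq (GRCh38.p14), which placed 13797 genes. The fits were also run on simulated arrays with independent noise. These lack the correlation seen between same-numbered arrays, so they do not vouch for the calls.

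For laminin α1 minus control, the replicate numbers were not taken to pair arrays across groups. The other fits held the number as a term shared by both groups. Alternatives were each array left out in turn, other level filters, averaged probe sets per gene, centred arrays, a further quantile normalization, array weights, eBayes with trend and robust set, and a block for the number. Of the probe sets with several symbols, values are given without a gene's name.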

Additional observations from a re-analysis of the deposited data

Results flagged for a closer look

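The 7 genes of the set that have no probe set of their own appear on 16 probe sets that list them with another gene, and these were used in no comparison. In 12 of the 16 every laminin α1 array was above every control array, which held for 10.1% of all genes tested. The 7 genes were chosen on this same contrast, so nothing is read from the count. Leaving out copies with identical values, it is 10 of 13. All 16 had a positive laminin α1 minus control difference, from 0.11 to 0.28 on the log2 scale with a median of 0.17, and none passed the limma threshold. In 15 of the 16 the arrays numbered 3 were lower than those numbered 1. Which of the listed genes each probe set reads was not tested.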

How the results depend on the processing

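The median laminin α1 minus control difference of the 52 genes stayed between 0.17 and 0.20 over the other settings and between 0.13 and 0.22 with 1 array left out. The median for arrays numbered 3 minus 1 stayed between -0.154 and -0.146, and between -0.18 and -0.11 with 1 array left out. The counts moved more, and the cause was not tested. For laminin α1 minus control, 730 genes and 6 members passed in the fit as reported. With array weights, whose estimation stopped before convergence, these were 4691 and 37, and with the replicate number as a block 1596 and 17, while leaving out 1 array gave 407 to 1214 genes and 0 to 13 members. For arrays numbered 3 minus 1, 1106 genes and 2 members passed. Without the level filter these were 714 and 1, with the filter at the 50th percentile 2183 and 9, with the trended and robust eBayes 2068 and 8, and with array weights 510 and 1, while leaving out 1 array gave 0 to 1219 genes and 0 to 2 members. For the larger of both differences, 181 genes passed, against 298 with the trended and robust eBayes and 86 to 211 with 1 array left out, and 0 members passed under any of these. Between same-numbered arrays, deviations from the group means correlated by 0.39, 0.02 and 0.53, and 4 of 6 arrays correlated best with their own number in the other group, a hint from the data and not from the design. Of 454 values of the genes followed singly under other settings, 365 kept their sign and side of the threshold, 63 lost the call, 19 gained it and 7 changed sign. Over all 52 members, the group difference changed sign for 6. For PEX6 leaving out replicates 1 at a time gave -0.021 (without control array 3) to 0.113, for UBR2 -0.059 (without laminin α1 array 3) to 0.110, for FRS3 -0.013 and for DDAH2 -0.010 (both without laminin α1 array 1) to 0.110 and 0.112, and for CDC5L -0.011 (without laminin α1 array 3) to 0.171, with -0.00017 without control array 1. FKBPL, not among those followed singly, had -0.011 without laminin α1 array 1. UBR2 had -0.0024 with array weights. All of these had intervals spanning 0 in the fit as reported. With 3 arrays per group, differences of the size seen here lie close to what the spread between passages allows to be called.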
